A study of Arabidopsis thaliana with 24 samples.

Results

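The response of Arabidopsis thaliana seedlings to the peptide flg22 was compared between the mutant mpk11 and wild-type Col. In each of 3 sets of arrays and at each time, the flg22 response was the value with flg22 less the value in mock. The Col response was then subtracted from the mpk11 response, and the result was averaged over 3 h and 30 min. This difference of responses, called the interaction here, used all 24 of the 24 arrays of the series, 12 of mpk11 and 12 of Col. It is above 0 where mpk11 responded with the larger increase or the smaller decrease, and below 0 in the opposite case.

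The arrays held 8 groups of 3: mpk11 with flg22 and in mock, and Col with flg22 and in mock, each at 3 h and at 30 min. Seedlings 10 days old had been moved to fresh liquid medium 48 h before they received 1 µM flg22 or, as mock, water, and RNA came from their leaves. The mutant is a single T-DNA insertion line, SALK049352, so a second change in that line cannot be told apart from the insertion in MPK11. MPK11 was not among the 181 of 576 probes with a gene name, nor were the other MAP kinase genes that were looked for, so the genotype labels were not checked by the transcript of the mutated gene. The leaf label was not checked by tissue markers. LHCB4.3, an antenna protein of photosystem II, was the 1 leaf gene measured, and the 8 root genes looked for were not among the named probes.

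Plants perceive flg22, a stretch of bacterial flagellin, with the receptor kinase FLS2 at the cell surface. Calcium influx, an oxidative burst and cascades of MAP kinases follow within minutes, and transcription factors such as the WRKY proteins then change the output of many defence genes. MPK11 is a MAP kinase related to MPK4 and is known to be activated by flg22 beside MPK3, MPK4 and MPK6.

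All values below are deposited log values, taken as log2, and each response or interaction is a difference of such values. Array medians lay between 4.02 and 4.17 with flg22, against 3.34 to 3.76 in mock. Nothing in the labels says that the sets were grown separately, so the spread that p-values rest on, between arrays of a group, may be technical. A lower share of responding cells and a lower transcript level per cell cannot be told apart in RNA of whole leaves.

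Most probes that changed with flg22 in mpk11 also changed in Col, and 0 were called different in their pooled response. In mpk11 208 probes rose (36.1% of 576) and 34 fell (5.9%), in all 42% of the probes by limma's moderated test at an adjusted p of 0.05. In Col 198 rose (34.4%) and 35 fell (6.08%), in all 40.5%. The responses share no array. Of the probes called, 213 were called in both, which is 88.0% of those of mpk11 and 91.4% of those of Col, and 0 of the 213 had opposite directions. The balance of rising and falling probes depends on how arrays are scaled. With each array centred on its median, 121 rose and 330 fell in mpk11, and 125 rose and 324 fell in Col. With quantile normalization the counts were 131 and 234 in mpk11, and 131 and 238 in Col. The median response over all probes was 0.16 in mpk11 and 0.11 in Col as deposited, against -0.40 in mpk11 and -0.39 in Col after centring. Centring lowered every response by 0.56 in mpk11 and by 0.50 in Col, so a rise smaller than that as deposited is under 0 after centring, in the gene groups below too.

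**Figure D1:**
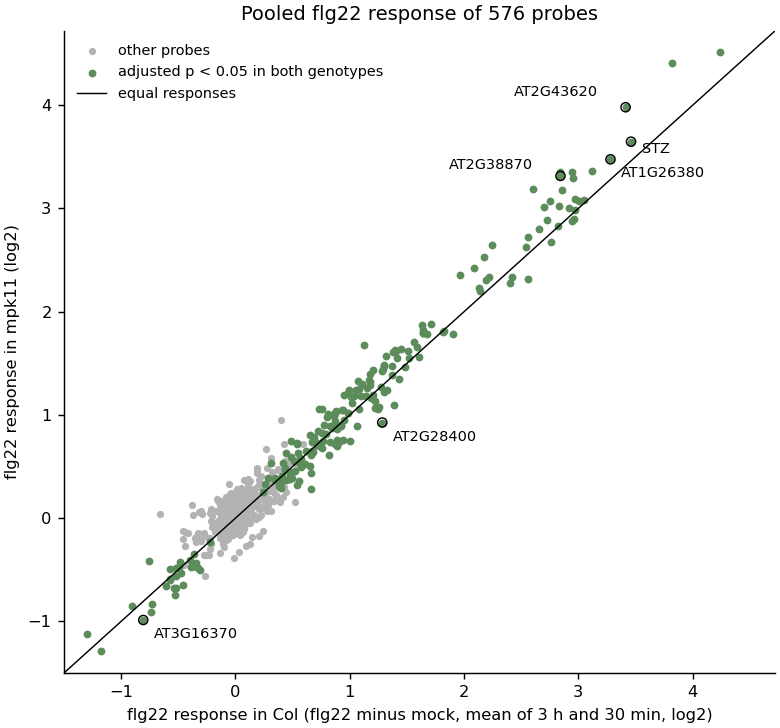
Pooled flg22 response (flg22 minus mock, mean of 3 h and 30 min, log2) of each of the 576 probes in mpk11, on the vertical axis, against that in Col, on the horizontal axis. Green points were called in both genotypes, the line marks equal responses, and the points follow it from the strongest decreases to the strongest increases, with 0 called in opposite directions.

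For the interaction itself, 0 of 576 probes were called (0%) by limma, with a lowest adjusted p of 0.998. At an unadjusted p under 0.05 there were 8 probes, 6 above 0 and 2 below. With no difference at all, a share near 0.05 of the 576 probes is expected under that cut, if a fit's spread holds no deviation shared by a set. The main fit leaves such a deviation in its spread, so its counts here and below can be lower. With the set as a fixed or random block the counts were 23 and 19, with 0 called. An alternative limma fit to the 3 per-set differences also called 0, with 39 at an unadjusted p under 0.05 and a lowest adjusted p of 0.289. Leaving out set 1, 2 or 3 gave 5, 28 and 3 probes at an unadjusted p under 0.05, and leaving out single arrays 5 to 17, with 0 called by limma each time. Estimates ran from -0.38 to 0.70, with a median of 0.026 and a standard deviation over probes of 0.161. The data bound the difference of responses more closely for some probes than for others. The 95% interval lay within 1 log2 unit of 0 for 559 probes (97.0%) and within 0.5 for 297 probes (51.6%). Among the 213 probes called in both genotypes these counts were 207 and 105. The 4 named genes whose interval passed 1 log2 unit were AT1G03220, AT1G65500, AT2G18690 and AT3G51730. For AT1G03220, an aspartyl protease gene, the interaction was 0.21 with an interval of -0.70 to 1.12.

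The named genes with the lowest p for a larger response in mpk11 were defence genes. They were AT2G43620, a gene of the chitinase family, AT2G38870, a serine proteinase inhibitor, and AT5G64120 (PRX71), a class III peroxidase of the cell wall. AT2G43620 had responses of 4.06, 4.25 and 3.64 in the mpk11 sets, against 3.22, 3.87 and 3.15 in the Col sets. The mean response was 3.98 ± 0.31 in mpk11 and 3.41 ± 0.40 in Col (SD, n = 3 sets each). The interaction of 0.57 (SE 0.20, interval 0.15 to 0.99) was above 0 in 3 of 3 sets and was not called (limma unadjusted p = 0.0108, adjusted p = 0.998). The limma fit to the per-set differences did not call it either (SE 0.14, unadjusted p = 0.0013, adjusted p = 0.289, the lowest adjusted p of that fit). For single genes SE, intervals and p-values come from the main fit, without a set block, unless another fit is named.

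The levels of AT2G43620 show where this difference lies. At 3 h with flg22 they were 9.18, 9.09 and 9.19 in mpk11, against 8.87, 9.05 and 8.96 in Col. In mock at 3 h they were 3.27, 2.91 and 3.10 in mpk11, against 3.81, 3.04 and 3.98 in Col. With flg22 at 3 h every mpk11 array was above every Col array, whereas in mock the genotypes overlapped and sets 1 and 3 of Col were the high arrays. At 30 min with flg22 the levels were 5.03, 5.05 and 4.69 in mpk11 and 4.55, 4.75 and 4.46 in Col. At 30 min in mock they were 2.83, 2.75 and 3.51 in mpk11 and 3.17, 3.02 and 3.13 in Col, and both treatments overlapped between the genotypes at this time. Over both times mpk11 less Col was 0.27 with flg22 and -0.30 in mock, so the interaction combined a higher treated level with a lower mock level.

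**Figure D2:**
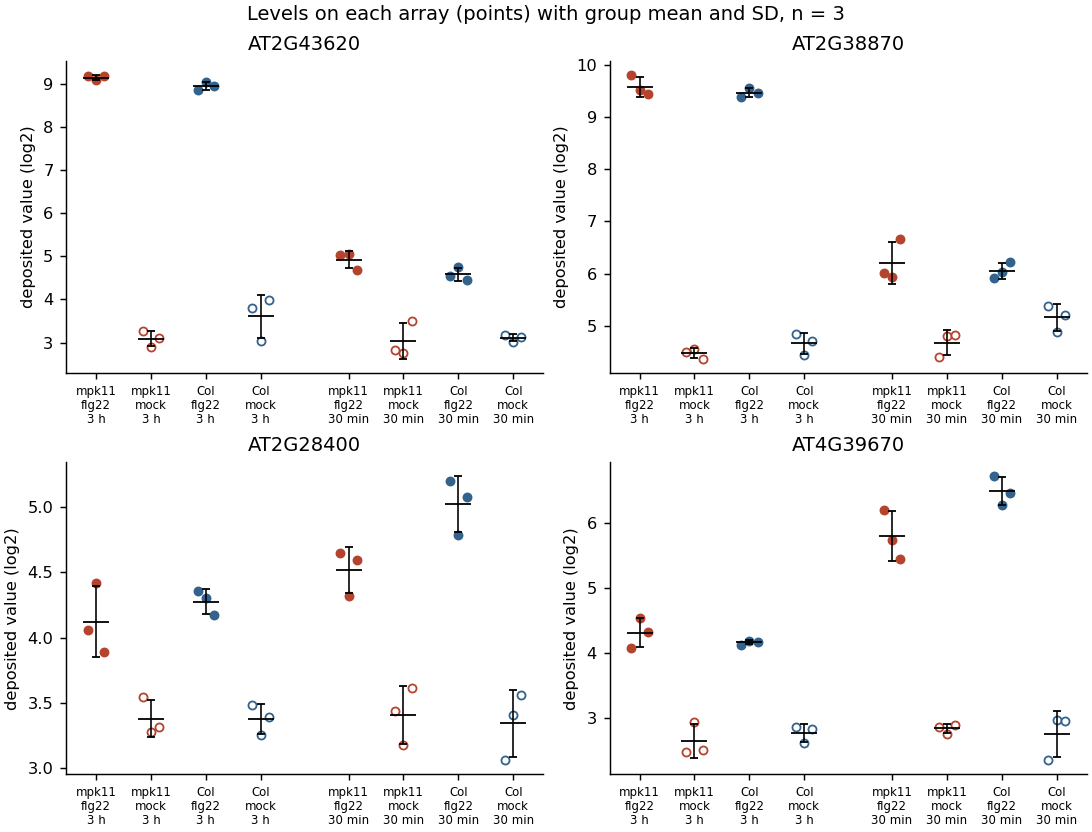
Deposited level (log2) of AT2G43620, AT2G38870, AT2G28400 and AT4G39670 on each of the 24 arrays, with mpk11 left of Col and flg22 left of mock at 3 h and at 30 min. Points are arrays and bars the group mean and SD (n = 3); each vertical axis has its own range and none starts at 0, and the steps between flg22 and mock exceed those between the genotypes in each panel.

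AT2G38870 had responses of 3.45, 3.05 and 3.45 in the mpk11 sets, against 2.53, 3.12 and 2.88 in the Col sets. Set 2 of mpk11 lay below set 2 of Col, and the interaction of 0.47 (SE 0.18, interval 0.10 to 0.85, limma unadjusted p = 0.0163, adjusted p = 0.998) was above 0 in sets 1 and 3 alone. At 3 h with flg22 its level was 9.80, 9.51 and 9.43 in mpk11 and 9.38, 9.55 and 9.47 in Col, which overlapped. In mock at 30 min the level was 4.40, 4.80 and 4.83 in mpk11 and 5.39, 4.88 and 5.22 in Col, so that each Col array was above each mpk11 array. For PRX71 the responses were 3.27, 3.42 and 3.37 in mpk11 and 2.78, 3.34 and 2.72 in Col. Its mpk11 sets spanned a narrow range that touched the highest Col set, and the interaction was 0.41 (SE 0.20, interval -0.01 to 0.82, limma unadjusted p = 0.0532, adjusted p = 0.998).

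The other 5 named genes with the lowest p above 0 came from calcium signalling, membrane traffic, respiration and transcription. CML42, a calmodulin-like calcium sensor, had a response of 2.53 ± 0.17 in mpk11 and 2.18 ± 0.21 in Col. AT5G52760, which encodes a protein with a heavy-metal-associated domain, had 2.64 ± 0.24 in mpk11 and 2.25 ± 0.12 in Col. WRKY22, a transcription factor of the flagellin pathway, had 3.07 ± 0.51 in mpk11 and 2.76 ± 0.10 in Col, with set 2 of mpk11 at 2.49 and its other sets at 3.28 and 3.44 (SD, n = 3 sets throughout). ARA6, a plant-specific Rab GTPase of endosomes, rose in mpk11 by 0.48 and had a response of 0.19 in Col that was not called. AT1G67350, a mitochondrial protein of the respiratory chain, had 0.17 in mpk11 and -0.11 in Col, and neither response was called.

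Across these 8 genes interactions ran from 0.28 to 0.57, and 5 of them were above 0 in 3 of 3 sets. All 8 were higher in mpk11 with flg22 (0.09 to 0.27) and lower in mpk11 in mock (-0.34 to -0.12). Their median interaction was 0.56 in set 1, 0.073 in set 2 and 0.53 in set 3, so set 2 showed little of the difference. The genes were picked by this difference, and these values describe them without a test of the group.

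On the other side AT2G28400 was the named gene with the lowest p for a smaller response in mpk11. Its responses were 0.86, 1.14 and 0.78 in the mpk11 sets, against 1.50, 1.21 and 1.14 in the Col sets. The highest mpk11 set and the lowest Col set were alike at 1.14, and the interaction was -0.36 (SE 0.16, interval -0.70 to -0.02, limma unadjusted p = 0.0401, adjusted p = 0.998). Its level at 30 min with flg22 was 4.65, 4.32 and 4.59 in mpk11 and 5.20, 4.79 and 5.08 in Col. In mock at that time it was 3.44, 3.18 and 3.61 in mpk11 and 3.06, 3.41 and 3.57 in Col. With flg22 the mpk11 arrays were below the Col arrays, and in mock they overlapped, so here the difference lay with the treated level (-0.33 over both times, against 0.03 in mock).

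The other 7 genes on this side had interactions of -0.25 or nearer 0. AT4G39670, a gene of the glycolipid transfer protein family, had a response of 2.31 ± 0.14 in mpk11 and 2.56 ± 0.22 in Col. AT3G16370, a GDSL-type lipase gene that fell in both genotypes, had -0.99 ± 0.26 in mpk11 and -0.81 ± 0.27 in Col (SD, n = 3 sets), and its set 1 alone, at -0.68, gave the negative mean. AT1G62660, an acid invertase gene, fell in mpk11 by 0.34, with -0.13 in Col that was not called. AT4G24340, of the phosphorylase superfamily, had 0.21 in mpk11 that was not called and rose in Col by 0.36. AT3G48070, a RING-type ubiquitin ligase gene, SDH1-1, a subunit of succinate dehydrogenase, and ATU2AF65A, a splicing factor, had responses between -0.28 and 0.21 with no call in either genotype. Of the 8 genes below 0, 5 were below 0 in 3 of 3 sets.

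**Figure D3:**
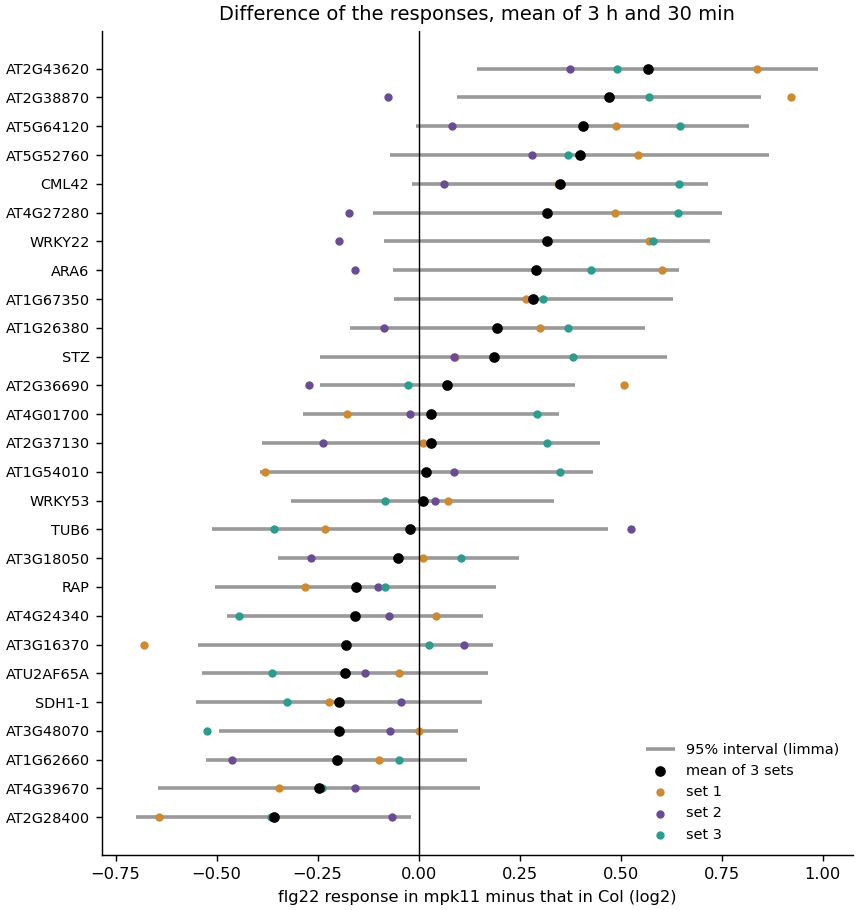
Interaction (flg22 response in mpk11 minus that in Col, mean of 3 h and 30 min, log2) of the 27 named genes chosen for low p or for a strong response. Black points are means, grey bars 95% limma intervals and coloured points the 3 sets; 24 of the 27 intervals include 0, and the set 2 point is often the lowest for the genes at the top.

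Of the 10 named genes with the largest rises, AT2G43620, AT2G38870, PRX71 and WRKY22 are described above, and the other 6 had interactions of 0.01 to 0.32. STZ, a zinc-finger transcription repressor, had a response of 3.65 ± 0.11 in mpk11 and 3.46 ± 0.21 in Col, an interaction of 0.19 (interval -0.24 to 0.62). WRKY53, a transcription factor of early defence, had responses of 3.16, 2.90 and 2.89 in mpk11 and 3.08, 2.86 and 2.98 in Col. The 2 sets of values interleave, and the interaction was 0.01 with an interval of -0.32 to 0.34. AT4G01700, of the chitinase family, had 3.08 ± 0.17 in mpk11 and 3.05 ± 0.14 in Col (interaction 0.03, interval -0.29 to 0.35). For WRKY53 and AT4G01700 a difference of responses beyond 0.5 in either direction lies outside the interval, which held for 3 of the 10 genes in all. That is not so for STZ. It is also not so for AT4G27280, an EF-hand calcium-binding protein, whose interaction of 0.32 (interval -0.11 to 0.75) was as large as that of WRKY22. AT2G36690, a 2-oxoglutarate-dependent oxygenase, and AT1G26380, a berberine bridge enzyme of indole-carbonyl nitrile synthesis, had interactions of 0.07 and 0.20. In all, the 10 named genes with the largest rises had interactions of 0.01 to 0.57 with a median of 0.26, against 0.026 over all 576 probes. As deposited 10 of 10 were above 0, against 326 of all 576 probes. Of the 39 probes with a mean response of 2 or over, 33 were above 0, with a median of 0.16. Centring lowered each by 0.060, which puts WRKY53 and AT4G01700 below 0. The median of the 10 was 0.49 in set 1, -0.05 in set 2 and 0.44 in set 3. Only 3 of the 10 had the same sign in all 3 sets.

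Among the 6 named genes with the largest decreases, AT3G16370 included, interactions ran from -0.18 to 0.03. TUB6, a beta-tubulin gene, fell by 0.59 in mpk11 and by 0.57 in Col. Its interaction of -0.02 had an interval of -0.51 to 0.47, and set 2 stood at 0.52 against -0.23 and -0.36 in sets 1 and 3. AT2G37130, a class III peroxidase, fell by 0.49 in mpk11 and by 0.52 in Col. RAP, a chloroplast RNA-binding protein, fell by 0.48 ± 0.06 in mpk11 and by 0.33 ± 0.05 in Col (SD, n = 3 sets), and was below 0 in the interaction in 3 of 3 sets. AT1G54010, a GDSL-like lipase gene, and AT3G18050 had interactions of 0.02 and -0.05.

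Gene groups are described by role, from reception of the signal to its outputs, beside the background shares given above. Of the 4 receptors and receptor-like kinases measured, 3 rose in each genotype as deposited. These 3 were AT1G11050, AT3G09010 and AT2G23450, with interactions between -0.09 and 0.07. After centring 0 of the 4 rose and 1 fell in each genotype, and with quantile normalization 2 rose and 0 fell. In signalling, all 5 calcium sensors, proteins that bind calcium and relay its rise, rose in both genotypes. Their interactions were above 0 in 5 of 5 with a median of 0.23. Over all 576 probes 326 were above 0, with a median of 0.026. Of the 186 probes called and rising in both genotypes 121 were above 0, with a median of 0.072. With centred arrays 4 of the 5 calcium sensors rose in each genotype and 4 of 5 interactions were above 0, at a median of 0.17. Of the same 186 probes 98 were then above 0, at a median of 0.012. With quantile normalization 4 of the 5 rose in each genotype and the median interaction was 0.12, with 5 of 5 above 0. The smallest of the 5 interactions was that of AT5G39670, at 0.04, and AT2G41410 had 0.23. Of the ubiquitin ligases, 3 of 4 rose in each genotype, among them AT2G42360 by 2.23 in mpk11 and 2.13 in Col. After centring 2 of the 4 ubiquitin ligases rose and 1 fell in each genotype.

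Among transcription factors all 4 WRKY genes rose in both genotypes under each scaling, with a median response of 2.39 in mpk11 and 2.20 in Col. Their interactions were spread around 0: WRKY22 had 0.32, WRKY29 0.15, WRKY53 0.01 and WRKY6 -0.18. WRKY6, a factor of senescence and phosphate responses, was thus on the other side of 0 from WRKY22, with an interval of -0.61 to 0.24. After centring, 2 of the 4 interactions were above 0.

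Among outputs, 4 of 6 genes of chitinases, defensins and proteinase inhibitors rose in mpk11 and 3 of 6 in Col, with a median interaction of 0.14. After centring 3 of 6 rose in each genotype, at a median interaction of 0.079. PDF1.2, a defensin of the jasmonate and ethylene pathway, had 0.32 ± 0.36 in mpk11 and 0.40 ± 0.83 in Col, the widest spread between sets among the genes named here. Of 5 oxidoreductases of defence 4 rose in each genotype, and after centring 3 rose and 1 fell in each. Of 7 UDP-glycosyltransferases, which attach sugars to small molecules, 3 rose in each genotype as deposited, and after centring 0 rose and 3 fell. UGT76B1, which conjugates isoleucic acid and salicylic acid, had responses of 0.58 in mpk11 and 0.57 in Col. AT2G04400, the indole-3-glycerol-phosphate synthase of tryptophan synthesis, rose by 1.46 ± 0.11 in mpk11 and 1.49 ± 0.19 in Col. Its interaction was -0.03 with an interval of -0.35 to 0.30.

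Among groups with cell-wide roles, the calls differed from group to group. Of 6 chaperone genes 3 rose in each genotype as deposited, among them BIP1, a chaperone of the endoplasmic reticulum, with 0.87 in mpk11 and 0.89 in Col. After centring 0 of the 6 rose and 2 fell in mpk11, and 1 rose and 1 fell in Col. Of 8 vesicle traffic genes 3 rose in each genotype as deposited, and after centring 0 rose and 6 fell in each. With quantile normalization 0 rose, and 4 fell in mpk11 and 3 in Col. Of 6 genes of mitochondrial respiration 0 were called in either genotype as deposited, while all 6 were lower in both after centring. The interactions of these groups had medians of -0.03, -0.03 and 0.08, and ARA6 and AT1G67350 were the highest among their members.

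The 2 translation genes had interactions with a median of 0.30 as deposited, 0.24 after centring and 0.20 with quantile normalization. AT2G37190, a ribosomal protein gene, had responses of 0.25, -0.09 and 0.41 in mpk11, against -0.16, -0.25 and -0.06 in Col. Its mpk11 sets all lay above the Col set of the same number, neither response was called, and the interaction was 0.35 (interval -0.21 to 0.91, limma unadjusted p = 0.212, adjusted p = 0.998). AT5G60390, an elongation factor gene, had an interaction of 0.25 (interval -0.18 to 0.69), of which set 2 gave 0.70 and sets 1 and 3 gave 0.01 and 0.05. Of 4 tubulin and histone genes 1 fell in mpk11 and 2 fell in Col as deposited, and all 4 fell in both after centring. Of 3 vacuolar proton pump genes 0 were called in either genotype as deposited, and all 3 were lower in both after centring.

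Over all probes the mpk11 response was larger in size than the Col response in each set, by a margin that 3 sets cannot test at 0.05. The total least squares slope of the mpk11 response on the Col response was 1.06, with 1.09, 1.01 and 1.09 in sets 1, 2 and 3. Centring does not alter this slope. By ordinary least squares the slope was 1.04, with 1.03, 0.96 and 1.04 in sets 1, 2 and 3, so a slope over 1 in each set depends on the method. The root mean square response over the 576 probes was 0.992 ± 0.0154 in mpk11 and 0.928 ± 0.0316 in Col (SD, n = 3 sets), a difference of 0.0638, and was larger in mpk11 in 3 of 3 sets. An exact two-sided permutation test of 3 sets against 3 gave p = 0.1, and an exact sign-flip test over sets p = 0.25, each the smallest value that the design allows. Set 2, with a total least squares slope of 1.01, showed the least of this difference.

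Interactions were higher among probes with larger responses. For the 39 probes with a mean response of 2 or over, the median interaction was 0.16 and 33 were above 0. For 61 probes between 1 and 2 it was 0.14, with 43 above 0, and for the 392 probes between -0.5 and 0.5 it was 0.011, with 206 above 0. For the 18 probes under -0.5 it was -0.055, with 5 above 0. Over all 576 probes 326 were above 0. Set 2 did not show this pattern. The 39 strongest probes had a median of 0.15 in set 1, 0.022 in set 2 and 0.29 in set 3, and the 18 probes under -0.5 had -0.19, 0.075 and -0.065 in these sets. Centring lowered every interaction by the same amount, 0.060, so that the medians of these classes of size became 0.0998, 0.0757, -0.049 and -0.11.

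**Figure D4:**
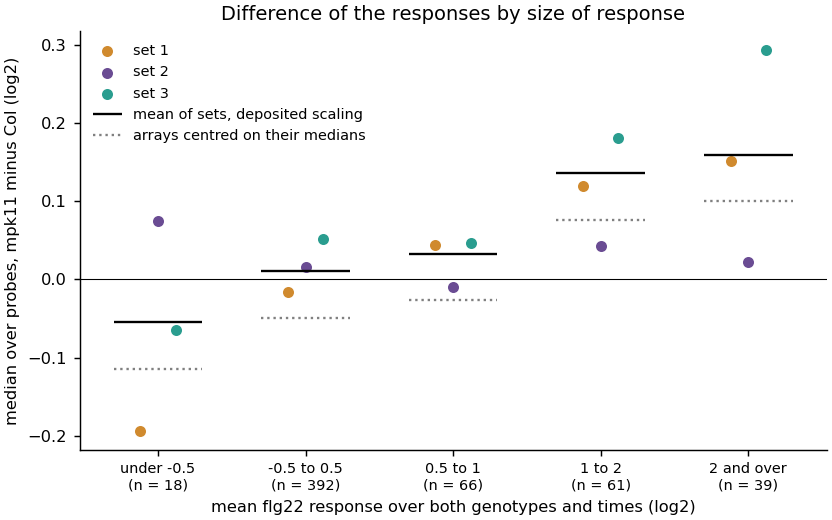
Median interaction (log2, mpk11 minus Col) of the probes in 5 classes of mean flg22 response over both genotypes and times. Points are sets, solid lines the medians of the mean over sets and dotted lines the medians with arrays centred; the solid lines climb from -0.055 under -0.5 to 0.16 at 2 and over, and the set 2 points lie between -0.009 and 0.075 with no such climb.

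In the 39 strongest probes the median of mpk11 less Col was 0.072 with flg22 and -0.13 in mock. In mock 30 of the 39 were below 0, against 378 of all 576 probes, and with flg22 26 of the 39 were above 0, against 263 of all 576. The genotypes differed in 0 of 576 probes by limma with flg22 (0%) and in mock (0%), with 28 at an unadjusted p under 0.05 in each case and lowest adjusted p of 0.824 and 0.383. The lower mock level in mpk11 enters the interaction with the same arrays and is no separate evidence. These genotype differences are given as deposited. Over all 576 probes the median of mpk11 less Col was -0.014 with flg22 and -0.050 in mock. A lower mock level in mpk11 was thus seen over the probes as a whole, and it depends on how arrays are scaled.

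Agreement between the genotypes was as close as agreement between sets of the same genotype. The root mean square difference over probes between the mpk11 and Col responses was 0.272 to 0.280 in the same set and 0.229 to 0.315 between different sets. Between 2 sets of mpk11 it was 0.25 to 0.312, and between 2 sets of Col 0.246 to 0.283. These ranges overlap. Across probes, Pearson's r of the mean responses was 0.983 and Spearman's rho 0.910. These correlations describe 576 probes measured on the same arrays, whose probes are not independent, and they are given without a p.

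**Figure D5:**
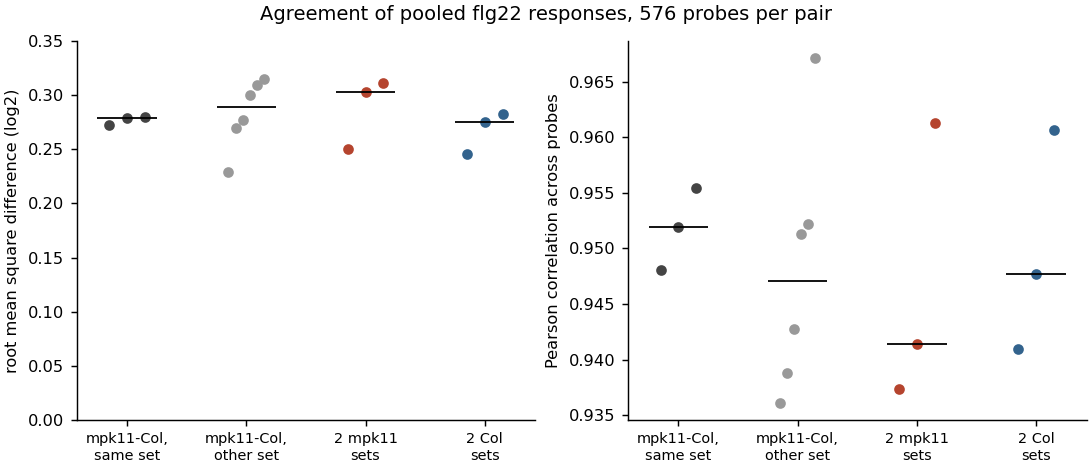
Root mean square difference (log2, left, axis from 0) and Pearson correlation across the 576 probes (right, axis not from 0) between pooled flg22 responses of single sets. Points are pairs of sets and lines medians; pairs of mpk11 with Col lie between 0.229 and 0.315, and pairs within a genotype between 0.246 and 0.312.

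The interaction was examined at each time as well. At 3 h and at 30 min limma called 0 of 576 probes (0%), with 8 and 7 at an unadjusted p under 0.05 and lowest adjusted p of 0.995 and 0.999. The limma fit to per-set differences, which blocks on the set, called 2 unnamed probes at 3 h, number 169 of the table below 0 and number 359 above 0 (adjusted p = 1.30e-04 and 0.0451), and 0 at 30 min. The total least squares slope was 1.07 at 3 h and 1.04 at 30 min, against 1.04 and 1.00 by ordinary least squares. AT2G43620 had interactions of 0.72 at 3 h and 0.42 at 30 min, and AT4G27280 0.07 at 3 h and 0.57 at 30 min. The change of the interaction between the times, 3 h less 30 min, was likewise called for 0 probes (0%), with 7 at an unadjusted p under 0.05 and a lowest adjusted p of 0.997. The per-set fit called 2 unnamed probes for this change.

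For the named genes the widest such change was that of AT4G39670. At 30 min its level with flg22 was 6.20, 5.74 and 5.44 in mpk11, against 6.71, 6.28 and 6.46 in Col. At 3 h with flg22 it was 4.08, 4.54 and 4.32 in mpk11, against 4.13, 4.19 and 4.17 in Col. Each mpk11 array was thus below each Col array at 30 min, and the genotypes overlapped at 3 h. The interaction was 0.28 at 3 h and -0.77 at 30 min, a difference of 1.05 (interval 0.25 to 1.84, limma unadjusted p = 0.0124, adjusted p = 0.997).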

How the data were processed

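The authors deposited 1 table of log values, taken here as log2, for 576 probes on 24 spotted arrays, each hybridised with RNA labelled with a single dye. Per the labels, every spot also held DNA that binds a Cy5-labelled oligonucleotide, by which poor spots were found. Which log base, background correction and scaling they used is not stated in these sources. Values ran from 0.45 to 11.4, and a natural log would change sizes but not p-values. No value was missing and 0 pairs of arrays were identical. Names came from the platform's probe table (181 probes, 180 matched to RefSeq names of TAIR10.1); no build is named for the probes, so no coordinates are given.

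Groups were taken from the labels. One model of 8 group means over all arrays was fitted with limma 3.58.1 in R 4.3.3, with empirical Bayes moderation and Benjamini-Hochberg adjustment over all 576 probes (threshold 0.05), without a filter, pseudocount or replicate block. Named genes are the 8 with the lowest p of the interaction in each direction, the 10 largest rises and 6 largest decreases among genes called in both genotypes, the 3 with the lowest p for the change between times, and up to 4 members of each list. The members and lists were chosen with earlier results of these data known, and some lists were extended once the probe names had been read. Slopes are by total least squares unless ordinary least squares is named. Same-set arrays deviated together from their group means, with a median r of 0.336 against -0.156 for different set numbers. Every same-set pair was over 0.1 in 7 of 8 comparisons of 2 groups. The main fit, without a replicate block, left this shared deviation in its spread. Its intervals can thus be wide and its p-values high beside those of the blocked fits given below. The deviations of the mpk11 and Col responses by set correlated at 0.198, -0.0426 and 0.0254. The set numbers thus pair arrays, while the 2 responses, each already a difference within a set, showed little pairing. On simulated data with 100 of 576 probes changed, the fit of the interaction recovered 89.9% of probes given a change of 1 log2 unit and 44.5% of those given 0.5. The simulated noise was independent between arrays, without a set effect. Recovery with fewer changed probes, where the adjustment is stricter, was not simulated, so these shares do not give the sensitivity behind the 0 calls. Alternatives covered scaling, a filter on dim probes, the prior, replicate blocks and each array or set left out.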

Additional observations from a re-analysis of the deposited data

Results flagged for a closer look

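For 4 genes every set moved one way in 1 group of values and the opposite way in the other, and none passed adjustment by limma. The share of such genes over all probes was not counted. With 3 sets this pattern also arises in genes without a difference, and some of the values, such as -0.01 and 0.014, were small. For AT1G67350, a mitochondrial protein of the respiratory chain, the response was above 0 in each mpk11 set (0.25, 0.07 and 0.19) and below 0 in each Col set (-0.01, -0.21 and -0.12). The interaction was 0.284 (limma unadjusted p = 0.102, adjusted p = 0.998). For AT4G39670, of the glycolipid transfer protein family, the interaction was above 0 in each set at 3 h (0.33, 0.014 and 0.48) and below 0 in each set at 30 min (-1.02, -0.33 and -0.96), a difference of 1.05 (limma unadjusted p = 0.0124, adjusted p = 0.997).

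AT1G64710, of the alcohol dehydrogenase family, had interactions below 0 in each set at 3 h (-0.084, -0.24 and -0.17) and above 0 at 30 min (0.70, 0.26 and 0.41), a difference of -0.62 (limma unadjusted p = 0.0426, adjusted p = 0.997). GRX480, a glutaredoxin that interacts with TGA transcription factors, was above 0 in each set at 3 h (0.032, 0.40 and 0.23) and below 0 at 30 min (-0.24, -0.11 and -0.11), a difference of 0.37 (limma unadjusted p = 0.188, adjusted p = 0.997).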

How the results depend on the processing

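The count of probes called for the pooled interaction stayed at 0 in all 34 alternatives, and 0 of the 76 named genes was called in any of them (lowest limma adjusted p 0.25). Of the 16 genes named for low p, 15 kept their sign throughout; AT3G16370 did not and reached 0.069. Centring each array on its median gave 451 probes called in the mpk11 response and 449 in the Col response, and quantile normalization 365 and 369. In the fit with the replicate block as per-set contrasts, the interaction at 3 h had 2 calls and the interaction at 3 h less that at 30 min had 2. These counts were 0 in the other alternatives, and the interaction at 30 min had 0 in all of them. The alternatives for each single time were added after the data were seen. With the set as a fixed or random replicate block the pooled interaction had 23 and 19 probes at an unadjusted p under 0.05, against 8 without, and 0 called. Leaving out single sets or arrays gave 187 to 247 calls in the mpk11 response, 189 to 238 in the Col response, 0 to 0 for the interaction, pooled or at each time, and for its change between times, slopes of 1.04 to 1.09 and size differences of 0.0443 to 0.0860. The number of arrays limits precision: the simulated recovery of a change of 0.5 log2 was 44.5% with 100 of 576 probes changed, and fewer changed probes were not simulated.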

Other observations

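Some genes were called in a single genotype, which does not show a difference between the genotypes. GSTF3, a glutathione S-transferase, rose by 0.72 in mpk11 (limma adjusted p = 0.00810) and had 0.42 in Col (limma adjusted p = 0.129), with an interaction of 0.30 (interval -0.33 to 0.92). SAL2, an inositol phosphatase family gene, rose by 0.35 in mpk11, with 0.30 in Col. AT5G60390, an elongation factor 1-alpha gene of translation, had -0.20 in mpk11, where set 2 stood at 0.31 and sets 1 and 3 at -0.52 and -0.39, and fell by 0.46 in Col. AT1G09200, a histone H3 gene, had -0.23 in mpk11 and fell by 0.35 in Col. In all 29 probes were called in mpk11 alone, 10 of them named, and 20 in Col alone, 7 of them named. Their interactions ran from -0.37 to 0.55 and from -0.23 to 0.31.

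An unnamed probe, number 169 of the table, was singled out after its values were seen. Its interaction was -1.55 at 3 h, and its interaction at 3 h less that at 30 min was -3.87. The limma fit to per-set contrasts called both (adjusted p = 1.30e-04 and 0.00135), while the fit to all arrays called neither (adjusted p = 0.995 at 3 h). Its level at 3 h was 4.75, 4.48 and 5.55 with flg22 and 6.71, 5.0 and 7.07 in mock in mpk11, and 4.76, 5.99 and 6.86 with flg22 and 5.0, 5.24 and 6.71 in mock in Col. At 30 min its level was 7.08, 5.81 and 7.21 with flg22 and 4.35, 4.71 and 5.08 in mock in mpk11, and 7.13, 4.29 and 5.35 with flg22 and 8.55, 4.41 and 4.81 in mock in Col. The spread within groups is wide. At 30 min the Col arrays of set 1 stand apart from sets 2 and 3, and at 3 h the Col arrays of set 3 were the highest. The fit to per-set contrasts called a further unnamed probe, number 243, for the change between the times (-1.67, adjusted p = 0.0210).

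The unnamed probe number 359 was called in the fit to per-set contrasts at 3 h (limma adjusted p = 0.0451), with interactions of 1.01, 1.17 and 0.59 in the sets and a mean of 0.92. The fit to all arrays did not call it (limma unadjusted p = 0.0440, adjusted p = 0.995). Its level at 3 h was 10.71, 11.36 and 10.25 with flg22 and 8.83, 9.21 and 8.45 in mock in mpk11, and 10.60, 10.77 and 10.33 with flg22 and 9.73, 9.79 and 9.12 in mock in Col. In mock each mpk11 array was below its Col array of the same set, and with flg22 the genotypes overlapped.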
